A study of Homo sapiens with 4 samples.

Results

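Intermediate filaments are cytoskeletal and nuclear fibres built from a large protein family whose members differ between cell types. The 10 genes described here were chosen by symbol: the keratins KRT7, KRT8, KRT18 and KRT19, the genes of vimentin (VIM), nestin (NES) and desmin (DES), and the nuclear lamins LMNA, LMNB1 and LMNB2. All 10 were found among the 58274 gene identifiers of the deposited table.

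RNA sequencing had been carried out on 4 populations, each with 1 library. The starting cells were undifferentiated BC1, an induced pluripotent stem cell (iPSC) line of human origin. The other 3 populations were sorted from differentiating BC1 cells, on APLNR at day 2 (mesoderm), on CD31 and CD34 at day 5 (hemogenic endothelial progenitors, HEPs) and on CD43 at day 8 (hematopoietic progenitors, HPCs). Per the labels, differentiation used activinA at 40 ng/ml and BMP4 at 50 ng/ml for 2 days, then VEGF at 40 ng/ml and bFGF at 50 ng/ml for 6 days, whereas the study's methods give the concentrations of the first pair the other way round. All populations came from this 1 line, and no population had a replicate, so no difference below has a replicate check and none was tested.

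Levels are in FPKM (fragments for each kilobase of transcript in every 1000000 mapped), which is a level per length, so genes can be set side by side within a library. Changes are differences in log2(FPKM + 1), a scale on which changes of low genes are understated, and a gene is said to have risen or fallen when it changed by at least 1 on it. Fold changes are ratios of FPKM with a 95% interval (exact Clopper-Pearson) computed from approximate fragment numbers, which covers counting error only. The recovered depth was 19500000 to 23400000 mapped fragments per library, and 13554 to 14335 genes per library had at least 1 FPKM. Each sorting marker was higher in the population sorted on it than in the one before. APLNR was at 0.782 FPKM in BC1 and 1073 FPKM in APLNR+. PECAM1 (the gene of CD31) and CD34 were at 93.1 and 102 FPKM in CD31+CD34+ against 0.460 and 0.645 FPKM in APLNR+. SPN (the gene of CD43) was at 92.4 FPKM in CD43+ against 11.7 FPKM in CD31+CD34+. Later populations still held earlier markers, with APLNR at 209 FPKM in CD31+CD34+ and PECAM1 and CD34 at 126 and 42.6 FPKM in CD43+. PTPRC, the gene of the pan-leukocyte marker CD45, was at no more than 0.0349 FPKM in any library.

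As background, a keratin filament is an obligate heteropolymer of a type II and a type I keratin, and the simple epithelial pair KRT8 and KRT18 is made early in the embryo. Vimentin is a type III protein that assembles with itself and is the typical filament of mesenchymal, endothelial and blood cells. Desmin is its muscle relative, and nestin is a large class VI protein known from progenitor cells that joins filaments of vimentin or desmin. The lamins line the inner nuclear membrane. LMNA gives lamin A and lamin C by alternative splicing, while LMNB1 and LMNB2 give the B-type lamins, which stay anchored to the membrane through a farnesyl group.

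The family changed its makeup along this path. Keratins made up most of the cytoplasmic intermediate filament RNA in BC1 and vimentin most of it in CD31+CD34+ and CD43+, and among the lamins the share of LMNA was higher at each step. The cytoplasmic members together (keratins, VIM, NES and DES) were at 567 FPKM (BC1), 1085 FPKM (APLNR+), 1130.5 FPKM (CD31+CD34+) and 284 FPKM (CD43+). Keratins took 82.7%, 54.4%, 21.4% and 25.8% of this sum in the 4 libraries in that order, VIM took 8.21%, 38.4%, 73.1% and 67.8%, and NES took between 5.42% and 8.98% throughout. The 3 lamins summed to 274, 550.4, 321 and 273 FPKM, of which LMNA was 8.06%, 10.1%, 33.8% and 45.3%. In RNA from a whole population, fewer cells of a type and less RNA per cell cannot be told apart, and this holds for every level below.

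**Figure D1:**
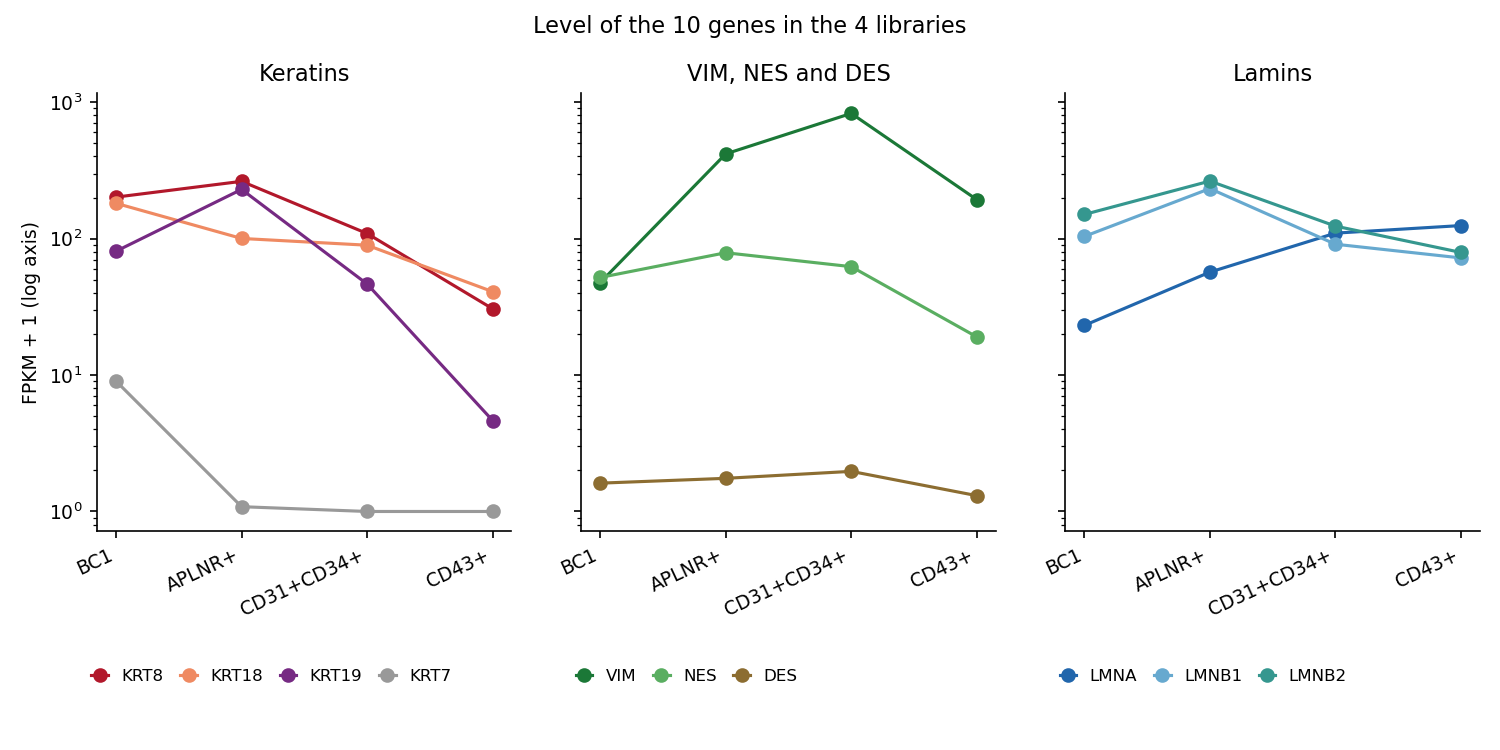
Level of each of the 10 genes in the 4 libraries, as FPKM + 1 on a log axis, with keratins, the other cytoplasmic filament genes and lamins in separate panels. Each point is 1 library, so there are no error bars; KRT19 and VIM have the widest ranges among the abundant genes, and LMNA is the gene whose level is higher at every step.

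KRT8, the type II keratin of simple epithelia (ENSG00000170421.12, GRCh38 chromosome 12, 52897187 to 52949954, minus strand), was at 200 FPKM (BC1), 262 FPKM (APLNR+), 108 FPKM (CD31+CD34+) and 29.6 FPKM (CD43+). The gene was thus highest in mesoderm and lowest in HPCs. From BC1 to APLNR+ it was 1.31-fold higher (95% interval 1.26 to 1.35), a log2 change of 0.38, which did not reach the threshold. It then fell 2.43-fold (2.33 to 2.52) to CD31+CD34+ and 3.65-fold (3.39 to 3.93) to CD43+, log2 changes of -1.27 and -1.83. Between BC1 and CD43+ the difference was 6.77-fold (6.31 to 7.27). Among 13910 protein-coding genes that passed the filter, KRT8 ranked 381st in BC1 and 3215th in CD43+.

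KRT18, its usual type I partner (ENSG00000111057.10, chromosome 12, 52948871 to 52952901, plus strand), was at 180 FPKM (BC1), 99.3 FPKM (APLNR+), 88.5 FPKM (CD31+CD34+) and 39.9 FPKM (CD43+). Each library was below the one before it. The step from BC1 to APLNR+ was 1.82-fold lower (1.73 to 1.91; log2 change -0.86) and the next 1.12-fold lower (1.06 to 1.18; -0.16), both short of the threshold. KRT18 fell 2.22-fold (2.07 to 2.38; -1.13) from CD31+CD34+ to CD43+.

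KRT19, a small type I keratin without a tail domain (ENSG00000171345.13, chromosome 17, 41523617 to 41528308, minus strand), moved most among the keratins that stayed measurable. Its level was 79.8 FPKM (BC1), 228 FPKM (APLNR+), 45.5 FPKM (CD31+CD34+) and 3.64 FPKM (CD43+). It rose 2.86-fold (2.63 to 3.12; log2 change 1.51) into mesoderm, fell 5.02-fold (4.55 to 5.55; -2.30) into HEPs and fell a further 12.5-fold (8.85 to 18.2; -3.32) into HPCs. The last value rests on about 34.9 fragments. Its rank went from 352nd in APLNR+ to 9518th in CD43+.

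KRT7, a type II keratin of ducts and glands (ENSG00000135480.15, chromosome 12, 52232520 to 52252186, plus strand), was measurable in BC1 only. It was at 8.03 FPKM there, at 0.0842 FPKM in APLNR+, which is about 1.46 fragments, and was listed at 0 in CD31+CD34+ and CD43+. Against a floor of 3 fragments per library, APLNR+ was at least 46.3-fold lower than BC1 and CD43+ at least 45.6-fold lower. No fold is given between the 3 differentiated populations, which were all at or under the floor.

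The partners within the keratin pair did not keep their ratio. KRT8 to KRT18 was 1.11 in BC1 (95% interval 1.07 to 1.16), 2.64 in APLNR+ (2.53 to 2.76), 1.22 in CD31+CD34+ (1.16 to 1.28) and 0.743 in CD43+ (0.679 to 0.812). A ratio within a library does not depend on the scaling between libraries. KRT19 to KRT18 was 0.442, 2.30, 0.514 and 0.0913 in the same order, so that KRT19 was the more abundant type I keratin in APLNR+ and the less abundant in the other 3 libraries. When the type II members (KRT7 and KRT8) were summed and set against the summed type I members (KRT18 and KRT19), the ratio was 0.801 (0.771 to 0.832) in BC1, 0.799 (0.771 to 0.828) in APLNR+, 0.806 (0.768 to 0.846) in CD31+CD34+ and 0.680 (0.623 to 0.744) in CD43+. The first 3 intervals overlap one another while each library has another mixture of keratins, and the interval of CD43+ lies below them. This sum was chosen after its values were seen. With KRT10, another type I keratin, counted in, the ratio was 0.733, 0.726, 0.720 and 0.488, so the CD43+ value depends on which type I genes are counted. It also depends on whether pseudogene copies are added, as described below.

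**Figure D2:**
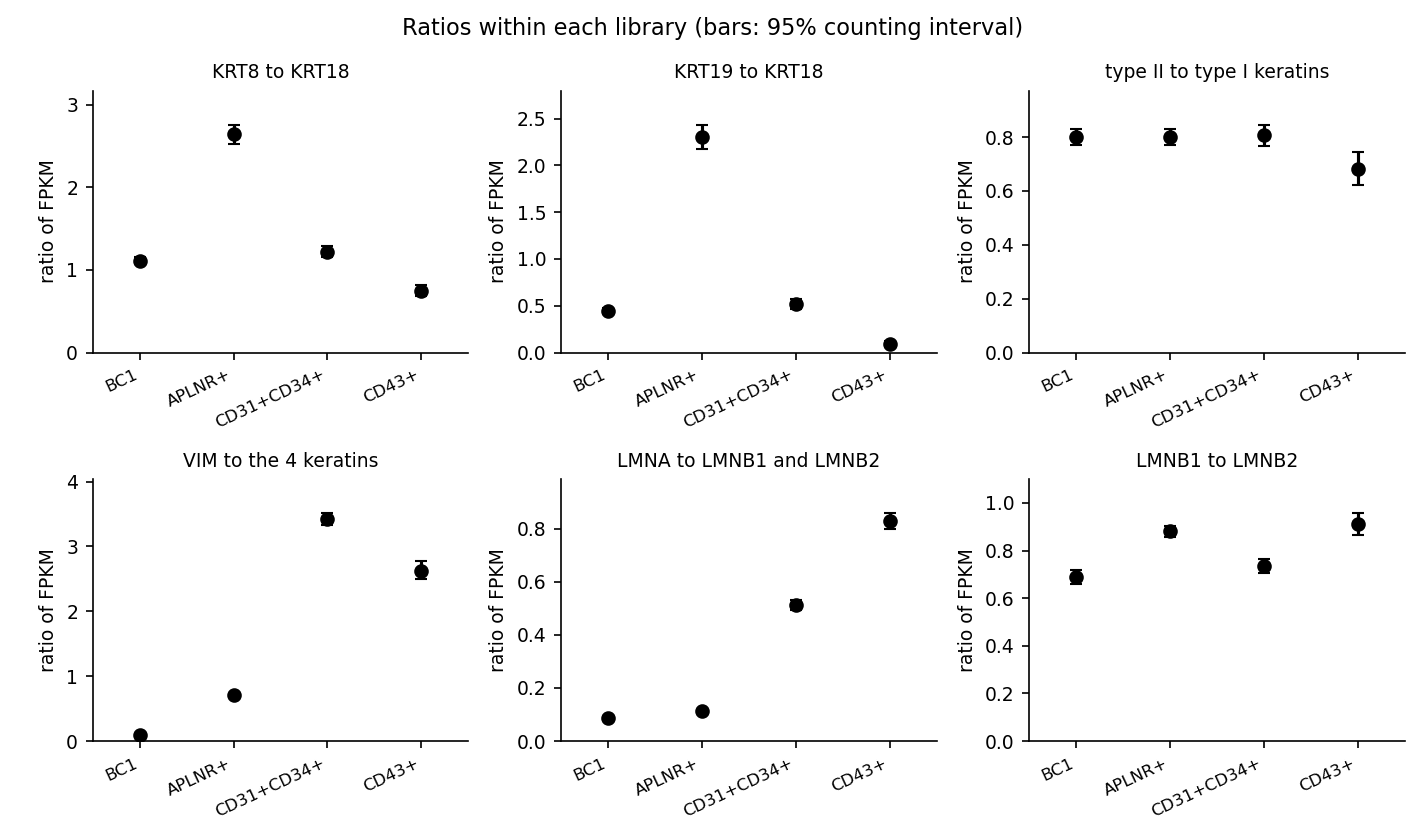
Ratios of FPKM between members within each library, on linear axes from 0, with 95% intervals from counting as bars; the 6 panels show keratin ratios, VIM against the 4 summed keratins, and lamin ratios. KRT8 to KRT18 runs from 0.743 in CD43+ to 2.64 in APLNR+, and LMNA to the summed B-type lamins runs from 0.0877 in BC1 to 0.828 in CD43+.

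Processed copies limit the keratin values. The table lists 50 KRT8 pseudogenes, 68 KRT18 pseudogenes and 5 KRT19 pseudogenes by symbol. The KRT8 copies summed to 7.32 FPKM (BC1), 7.37 FPKM (APLNR+), 3.61 FPKM (CD31+CD34+) and 4.67 FPKM (CD43+). That is 3.52%, 2.74% and 3.24% of the signal on KRT8 and its copies in the first 3 libraries and 13.6% in CD43+, where KRT8 itself is low. For KRT18 the share was 1.09% to 2.48%, and for KRT19 at most 0.237%. With the copies added to their genes, the type II to type I ratio was 0.822, 0.818, 0.826 and 0.770, so that CD43+ lay nearer to the other libraries than without them. KRT8 and KRT18 lie on opposite strands and their annotations share 1084 bases, 525 of them exonic in both. Whether strand was used in the quantification is not given in the sources used here, so fragments from the shared bases cannot be assigned with certainty. KRT7 overlaps KRT86, KRT87P and KRT7-AS, none of which was above 0.0764 FPKM.

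Vimentin changed most of the abundant members at the step into mesoderm. VIM (ENSG00000026025.15, chromosome 10, 17228259 to 17237593, plus strand) was at 46.6 FPKM (BC1), 417 FPKM (APLNR+), 826 FPKM (CD31+CD34+) and 192 FPKM (CD43+). Its lowest library was BC1 and its highest CD31+CD34+. It rose 8.95-fold (8.37 to 9.58; log2 change 3.13) from BC1 to APLNR+. The next step, into CD31+CD34+, was 1.98-fold upward (1.93 to 2.03; 0.99), just short of the threshold. When each library was scaled to the same total, or without mitochondrial and ribosomal RNA genes, the latter change crossed 1. VIM fell 4.30-fold (4.16 to 4.45; -2.10) from CD31+CD34+ to CD43+, where it was still 4.13-fold (3.85 to 4.43) above BC1. It ranked 1989th among protein-coding genes in BC1, 177th in APLNR+, 98th in CD31+CD34+ and 416th in CD43+.

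Set against the summed keratins, VIM to keratins was 0.0993 (BC1), 0.707 (APLNR+), 3.42 (CD31+CD34+) and 2.63 (CD43+). The order of the pair turned between APLNR+ and CD31+CD34+. From CD31+CD34+ to CD43+ both parts of this ratio were lower, the keratin sum at 242 and 73.1 FPKM. The antisense gene VIM-AS1 shares 641 exonic bases with VIM and was at 0.435 to 1.26 FPKM, and AL133415.1, with 619 shared exonic bases, was at no more than 0.410 FPKM.

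Nestin followed a flatter course until the last step. NES (ENSG00000132688.10, chromosome 1, 156668763 to 156677397, minus strand) was at 50.9 FPKM (BC1), 77.8 FPKM (APLNR+), 61.3 FPKM (CD31+CD34+) and 18.0 FPKM (CD43+). The first 3 libraries lay within 1.53-fold of one another (1.48 to 1.58 for the widest pair, BC1 and APLNR+). NES then fell 3.40-fold (3.23 to 3.57; log2 change -1.71) from CD31+CD34+ to CD43+. In BC1 NES and VIM were at nearly the same level per length, and in the other libraries VIM was the higher.

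DES, the muscle member (ENSG00000175084.11, chromosome 2, 219418377 to 219426739, plus strand), did not pass the filter of 1 FPKM. It was at 0.613 FPKM (BC1), 0.750 FPKM (APLNR+), 0.968 FPKM (CD31+CD34+) and 0.306 FPKM (CD43+), or about 23.8, 31.6, 44.6 and 12.9 fragments. The interval of the fold included 1 from BC1 to APLNR+ (0.696 to 2.18) and from APLNR+ to CD31+CD34+ (0.800 to 2.11), so these differences were not detectable at this depth. CD43+ was 3.16-fold lower than CD31+CD34+ (1.67 to 6.40), a log2 change of -0.59 that did not reach the threshold.

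**Figure D3:**
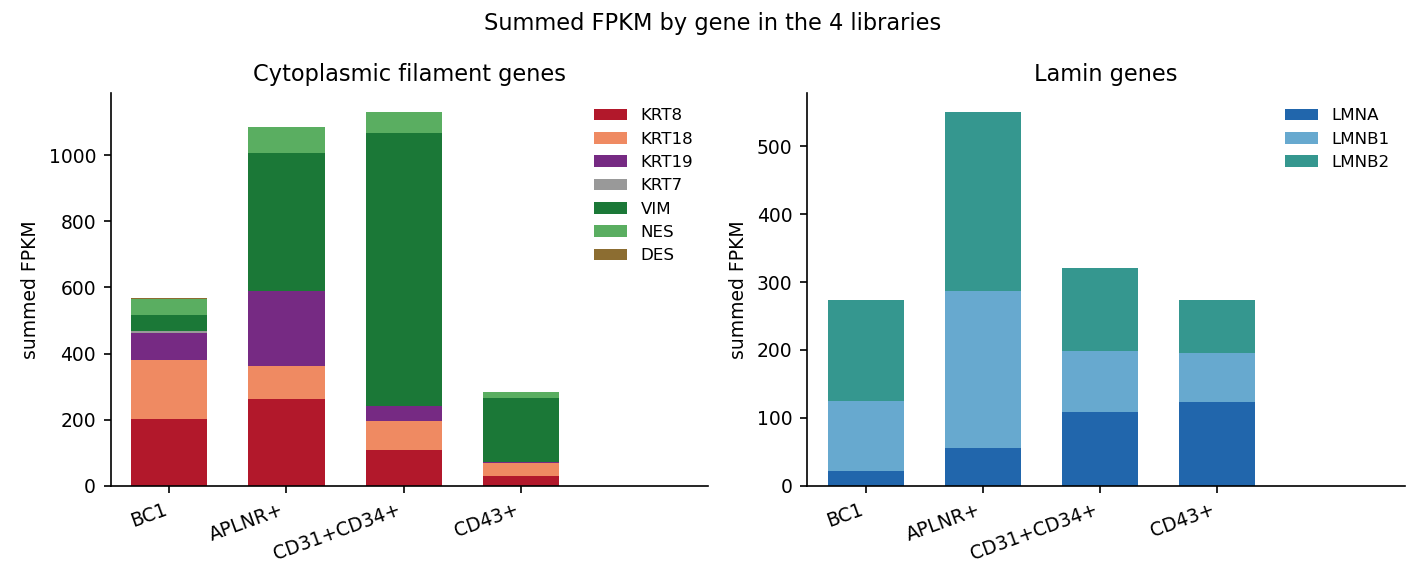
Summed FPKM of the cytoplasmic members (left) and of the lamins (right) in each library, stacked by gene from 0. The keratin part is 82.7% of the cytoplasmic bar in BC1 and VIM is 73.1% of it in CD31+CD34+, and LMNA is 8.06% of the lamin bar in BC1 and 45.3% in CD43+.

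The lamins parted into LMNA and the B-type genes. LMNA (ENSG00000160789.19, chromosome 1, 156082573 to 156140089, plus strand) was at 22.1 FPKM (BC1), 55.8 FPKM (APLNR+), 109 FPKM (CD31+CD34+) and 124 FPKM (CD43+). Each library was above the one before. The gene rose 2.52-fold (2.32 to 2.75; log2 change 1.30) into mesoderm, was 1.95-fold higher (1.85 to 2.05; 0.95) in HEPs and 1.14-fold higher (1.09 to 1.19; 0.18) in HPCs, the latter 2 steps short of the threshold. Under other scalings of the libraries the change into HPCs was 0.07 to 0.29, still upward, so its size depends on the scaling. Between BC1 and CD43+ LMNA rose 5.59-fold (5.17 to 6.05; 2.43). Gene-level values do not separate lamin A from lamin C.

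LMNB1 (ENSG00000113368.11, chromosome 5, 126776623 to 126837020, plus strand) was at 103 FPKM (BC1), 232 FPKM (APLNR+), 89.98 FPKM (CD31+CD34+) and 71.2 FPKM (CD43+). It peaked in mesoderm, with a rise of 2.25-fold (2.15 to 2.36; log2 change 1.16) and then a fall of 2.57-fold (2.46 to 2.69; -1.35). CD43+ was 1.26-fold lower again (1.19 to 1.34; -0.33), short of the threshold. LMNB2 (ENSG00000176619.12, chromosome 19, 2427638 to 2456996, minus strand) was at 149, 263, 123 and 78.2 FPKM in the same order and also peaked in mesoderm. Its steps were 1.76-fold higher (1.72 to 1.80; 0.81), a fall of 2.15-fold (2.10 to 2.19; -1.10) and 1.57-fold lower (1.52 to 1.61; -0.64). LMNB2 shares 257 exonic bases on the same strand with TIMM13, an import chaperone of mitochondria at 131, 123, 56.8 and 68.0 FPKM, so fragments from these bases cannot be assigned to either gene with certainty.

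LMNA to the sum of LMNB1 and LMNB2 was 0.0877 in BC1 (0.0814 to 0.0944), 0.113 in APLNR+ (0.108 to 0.118), 0.511 in CD31+CD34+ (0.494 to 0.529) and 0.828 in CD43+ (0.799 to 0.858). No pair of these intervals overlaps. The widest step, from APLNR+ to CD31+CD34+, combined higher LMNA with lower B-type genes. LMNB1 to LMNB2 stayed between 0.688 and 0.910 in the 4 libraries.

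Promoter sequence was available for 6 of the 10 genes in RefSeq (GRCh38.p14), as windows from 250 bases before to 50 bases after the annotated start. The windows of VIM and the 3 lamins are printed, 5′ to 3′ on the strand of the gene, because VIM and LMNA are the members that rose from BC1 to CD43+ and the B-type lamins are the counterparts of LMNA. For LMNA and LMNB1, which have 3 and 2 windows listed, the one at the annotated gene start is shown. Capitals mark a GC box (GGGCGG, or CCGCCC on the other strand) or a CCAAT box (CCAAT or ATTGG).
VIM promoter, chr10:17227991-17228290, plus strand: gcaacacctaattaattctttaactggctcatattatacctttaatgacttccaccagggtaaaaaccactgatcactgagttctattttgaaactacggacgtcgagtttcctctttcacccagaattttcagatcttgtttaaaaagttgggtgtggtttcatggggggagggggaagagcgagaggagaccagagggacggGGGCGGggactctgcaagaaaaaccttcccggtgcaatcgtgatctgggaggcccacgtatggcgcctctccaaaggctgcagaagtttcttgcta
LMNA promoter, chr1:156082323-156082622, plus strand: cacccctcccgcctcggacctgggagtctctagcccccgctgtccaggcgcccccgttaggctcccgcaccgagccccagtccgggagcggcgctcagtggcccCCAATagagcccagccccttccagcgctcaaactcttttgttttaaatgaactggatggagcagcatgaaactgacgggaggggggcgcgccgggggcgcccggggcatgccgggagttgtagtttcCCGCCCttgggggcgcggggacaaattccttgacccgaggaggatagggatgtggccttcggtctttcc
LMNB1 promoter, chr5:126776373-126776672, plus strand: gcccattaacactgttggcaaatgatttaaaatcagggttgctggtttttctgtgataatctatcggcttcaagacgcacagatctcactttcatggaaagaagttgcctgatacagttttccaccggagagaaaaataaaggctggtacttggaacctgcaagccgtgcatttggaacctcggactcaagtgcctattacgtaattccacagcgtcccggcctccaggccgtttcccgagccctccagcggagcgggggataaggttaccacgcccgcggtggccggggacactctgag
LMNB2 promoter, chr19:2456910-2457209, minus strand: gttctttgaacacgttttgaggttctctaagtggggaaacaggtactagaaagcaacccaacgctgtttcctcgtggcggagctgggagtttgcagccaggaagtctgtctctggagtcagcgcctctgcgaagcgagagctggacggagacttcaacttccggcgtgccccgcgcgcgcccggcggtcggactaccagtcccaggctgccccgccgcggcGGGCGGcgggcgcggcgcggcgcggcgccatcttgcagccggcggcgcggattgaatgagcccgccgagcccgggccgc
VIM and LMNB2 each held 1 GC box, LMNA held 1 GC box and 1 CCAAT box, and LMNB1 held none of these letters in its window. The NES window, not printed, held 4 GC boxes, some of which overlap one another. Of all 35116 promoter windows of this length, 45.0% held a GC box and 34.6% a CCAAT box. The E-box CAGGTG or CACCTG, read by SNAI factors, was in 20.6% of all windows and the TATA box TATAAA or TTTATA in 11.5%, and neither was in the windows of these 5 genes or of KRT8. The KRT8 window lies 23485 bases from the start of the gene in the annotation used for the values. These matches describe letters and not binding.

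Counted together, 9 of the 10 genes passed the filter (at least 1 FPKM in at least 1 library), DES being the exception. From BC1 to APLNR+, KRT19, VIM, LMNA and LMNB1 rose and KRT7 fell, which is 4 and 1 of the 9. Of all 17137 genes that passed, 9.15% rose and 9.32% fell at this step. Between APLNR+ and CD31+CD34+ 0 members rose while 4 fell (KRT8, KRT19, LMNB1 and LMNB2), against 13.0% and 11.4% of all genes. Between CD31+CD34+ and CD43+ 0 members rose while 5 fell (KRT8, KRT18, KRT19, VIM and NES), against 7.63% and 13.5% of all genes. From BC1 to CD43+, LMNA and VIM rose while the 4 keratins and NES fell, against 15.2% rising and 18.9% falling of all genes. The median change of the 9 was 0.81, -0.34, -1.13 and -1.45 in these 4 comparisons, beside 0.00, 0.01, -0.08 and -0.06 for all genes. Consecutive comparisons share a library, so their changes are not independent of one another.

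**Figure D4:**
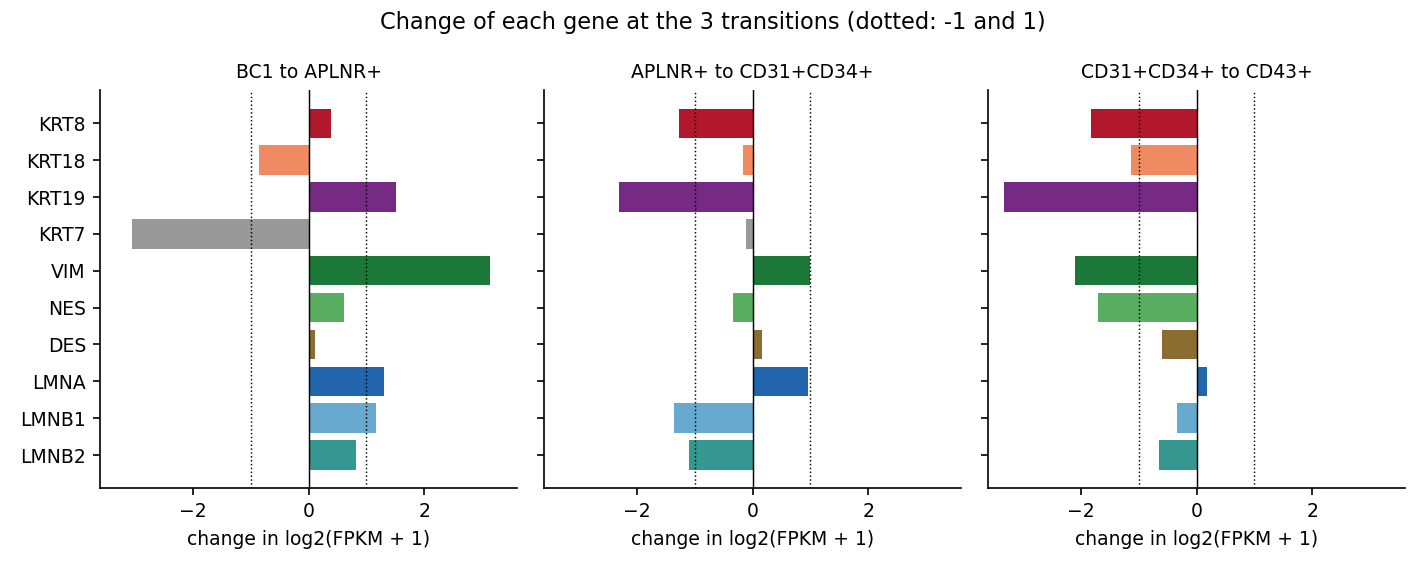
Change in log2(FPKM + 1) of each gene at the 3 consecutive steps, with dotted lines at the threshold of 1 in either direction. VIM at 3.13 is the longest bar at the step into mesoderm, KRT7 at -3.06 the longest in the other direction, and at the step from CD31+CD34+ to CD43+ VIM, KRT8, KRT18, KRT19 and NES lie beyond -1.

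**Figure D5:**
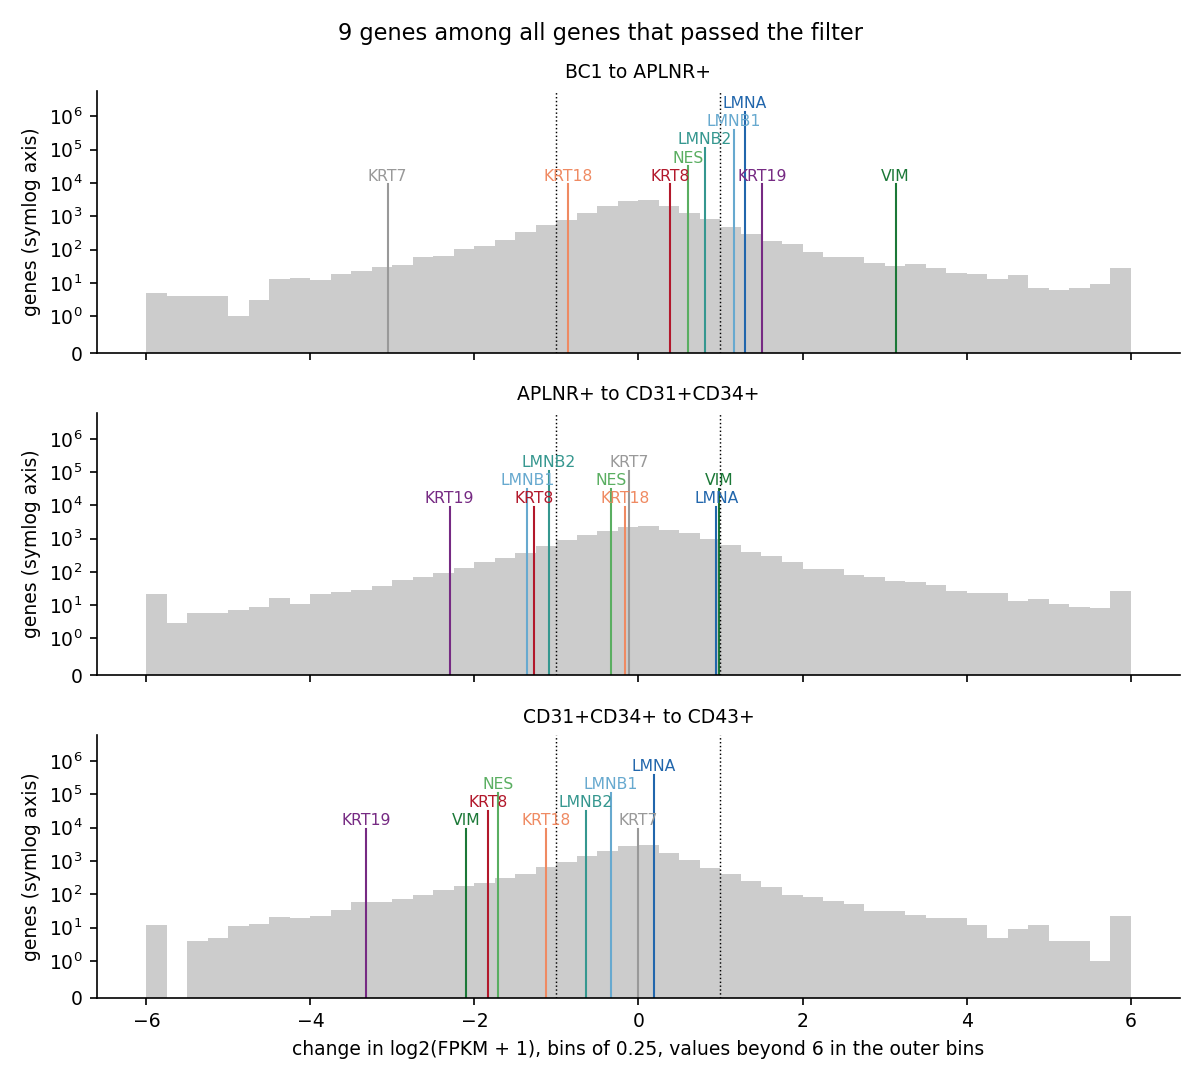
Number of genes (symlog axis) by change in log2(FPKM + 1) at the 3 consecutive steps, in grey for all 17137 genes that passed the filter, with a coloured line for each of the 9 members that passed. The members lie on both sides of 0 at the step into mesoderm, while 7 of the 9 are below 0 at the step into CD31+CD34+ (KRT7 among them, which was at or under the floor in both libraries) and 7 of the 9 are below 0 at the step into CD43+.

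Other genes of the filament system were taken from 5 lists. Of 51 other keratins, KRT10 alone passed the filter. KRT10, best known from the suprabasal epidermis, was at 24.1, 33.0, 16.0 and 17.2 FPKM and neither rose nor fell at a step, with log2 changes of 0.44, -0.996 and 0.10. Its locus overlaps TMEM99 on the other strand, which was at no more than 5.12 FPKM. Of 10 other cytoplasmic filament genes, 8 passed, with 0, 2 and 0 rising and 3, 3 and 2 falling at the 3 steps, and none reached 10 FPKM. The neuronal genes NEFL, NEFM and INA were the 3 that fell at the step into mesoderm, from 6.31, 9.41 and 5.08 FPKM to 1.61, 2.98 and 1.99 FPKM. NEFH and BFSP1 rose into HEPs, to 4.06 and 4.31 FPKM. These 5 genes were picked out after their values were seen. Median changes of this list were -0.58, -0.67 and -0.44.

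Linkers tie filaments to junctions and to one another. Of 17 listed, 13 passed, with 1, 3 and 0 rising and 5, 3 and 2 falling at the 3 steps and median changes of -0.12, 0.18 and -0.51. HSPB1, a small heat shock protein that binds filaments, was at 191, 385, 506 and 705 FPKM. The desmosomal and cornified-envelope linker PPL fell from 10.3 to 1.01 FPKM and the desmosomal plakophilin PKP2 from 10.7 to 1.203 FPKM at the step into mesoderm. DSP, which anchors keratins at desmosomes, was at 13.5, 18.4, 8.37 and 1.04 FPKM. The cytolinkers MACF1 and PLEC and the plakoglobin gene JUP rose from APLNR+ to CD31+CD34+, from 30.7 to 98.4, from 28.96 to 77.8 and from 59.7 to 128 FPKM. PLEC, which links vimentin to other filament systems, then fell to 34.0 FPKM in CD43+.

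Partners of the lamina bind lamins or join them to the envelope, the chromatin or the cytoskeleton. Of 24 listed, 22 passed, with 3, 0 and 0 rising and 0, 1 and 4 falling, and medians of 0.30, -0.11 and -0.21. SUN2, which joins the lamina to the cytoskeleton across the nuclear envelope, was at 9.42, 35.9, 56.6 and 16.1 FPKM, rising into mesoderm and falling into HPCs. SYNE4, a nesprin that ties the nucleus to motor proteins, fell from 18.5 to 0.727 FPKM into HEPs, and LEMD2, an inner nuclear membrane protein, fell from 49.1 to 16.2 FPKM into HPCs. The 5 enzymes that process lamins all passed. ZMPSTE24, the protease that matures prelamin A, fell from 16.5 to 7.75 FPKM into HEPs, the step at which LMNA was 1.95-fold higher. The log2 change of ZMPSTE24, -1.002, was barely past the threshold. Into HPCs the farnesyltransferase subunit FNTB rose from 5.23 to 17.0 FPKM while its partner FNTA fell from 72.8 to 33.8 FPKM. Over the 5 lists together, 49 of 107 genes passed, of which 4, 5 and 1 rose and 8, 8 and 9 fell at the 3 steps. Of all genes, 9.15%, 13.0% and 7.63% rose and 9.32%, 11.4% and 13.5% fell at these steps. The shares rising in the lists were thus not above those of all genes, while the shares falling were above them at each step. These differences rest on few genes and were not tested.

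Several marker lists also changed along these steps, some in another direction than the members, and their part in the results was not tested. Of 15 epithelial genes, 15 fell from BC1 to APLNR+, against 9.32% of all genes. The epithelial list summed to 887, 162, 67.3 and 27.5 FPKM in the 4 libraries. From BC1 to APLNR+, CDH1 (E-cadherin) fell from 70.9 to 5.14 FPKM and EPCAM from 81.8 to 3.51 FPKM. The keratins divided at this step: KRT19 rose and KRT8 was 1.31-fold higher, while KRT7 fell and KRT18 was 1.82-fold lower. The pluripotent list summed to 3906, 1309, 224 and 195 FPKM. Of its 10 genes 8, 4 and 2 fell at the 3 steps, against 9.32%, 11.4% and 13.5% of all genes. In APLNR+, where KRT8 and KRT19 were highest, the mesoderm list summed to 2613 FPKM against 6.14 (BC1), 284 (CD31+CD34+) and 42.7 FPKM (CD43+), and its 9 genes that passed all rose into APLNR+ and all fell into CD31+CD34+. Of 10 endoderm genes 8 passed the filter, and 5 of these rose into APLNR+, against 9.15% of all genes. The endoderm list summed to 3174 FPKM in APLNR+ against 30.8 (BC1), 110 (CD31+CD34+) and 37.4 FPKM (CD43+). CER1 and GSC, both also known from early mesendoderm, were at 2991 and 111 FPKM of it, SOX17 was at 16.6 FPKM and FOXA2 was at 0.588 FPKM. The trophoblast and amnion list summed to 391 FPKM in APLNR+, against 7.71, 50.6 and 5.91 FPKM in BC1, CD31+CD34+ and CD43+. HAND1, which is also on the mesoderm list, was at 357 FPKM and GATA3 at 30.0 FPKM in APLNR+, 6 of the 15 genes passed, and CGB3, CGB5, ELF5 and XAGE2 were listed at 0 in all 4 libraries.

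Beside VIM, the smooth muscle and mesenchymal list summed to 608, 321, 883 and 118 FPKM. COL1A2 was at 20.9, 65.0, 207 and 16.3 FPKM and THY1 at 410, 76.3, 340 and 27.6 FPKM. Both had the order of VIM from APLNR+ to CD43+ but, unlike VIM, were lower in CD43+ than in BC1. COL1A1 was at 26.0, 22.9, 184 and 27.7 FPKM and ACTA2 at 3.09, 2.19, 48.3 and 30.1 FPKM, each higher in CD43+ than in BC1. TAGLN, at 129, 117, 74.7 and 3.52 FPKM, and CNN1, at 11.1, 29.7, 13.4 and 3.18 FPKM, were lower in CD31+CD34+ than in APLNR+. Of the 9 listed genes that passed, 5 rose and 1 fell into CD31+CD34+, against 13.0% and 11.4% of all genes. At the step into CD43+ 1 rose and 6 fell, against 7.63% and 13.5%. From BC1 to CD43+ 2 rose and 3 fell, against 15.2% and 18.9%. MYH11, which defines mature smooth muscle, was at no more than 0.203 FPKM. The endothelial list, which holds the sorting markers PECAM1 and CD34, summed to 51.0, 94.7, 1570 and 384 FPKM. Beside NES, the neural progenitor list summed to 246, 87.9, 1.68 and 0.564 FPKM. In CD31+CD34+, where NES was at 61.3 FPKM, SOX1, SOX2, SOX3, ZIC1, HES5, NEUROG2 and DCX were listed at 0. The hematopoietic list, which holds the sorting marker SPN, summed to 15.2, 12.7, 479 and 12774 FPKM. The globins HBE1 and HBG2 alone were at 5271 and 5256 FPKM in CD43+. Beside the B-type lamins, 0 of 24 cell cycle genes rose or fell from BC1 to APLNR+ (median change -0.07), 1 rose and 2 fell into HEPs (-0.25), and 0 rose and 7 fell into HPCs (-0.28). Of all genes, 9.15%, 13.0% and 7.63% rose and 9.32%, 11.4% and 13.5% fell at these steps. Only the share of cell cycle genes falling into HPCs was above that of all genes. MKI67, a marker of dividing cells, was the gene that rose into HEPs, at 13.3, 19.5, 40.2 and 15.0 FPKM in the 4 libraries. Its log2 change into HEPs, 1.004, was barely past the threshold. RRM2, a subunit of ribonucleotide reductase, and CCNE1 (cyclin E1) were the genes that fell there, from 83.4 to 38.6 FPKM and from 18.2 to 6.28 FPKM.

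The genes nearest to each member in pattern were taken over the 4 libraries from 8932 protein-coding genes with at least 10 FPKM in 1 library, by the Euclidean distance between log2(FPKM + 1) values less their own mean. With only 4 points many genes lie close, and nearness is a description. Nearest to KRT8 were C14orf132 (distance 0.0768), RHBDF2 and the keratin anchor DSP (0.268). Nearest to KRT18 were OLFM2 (0.0570), USP28 and CITED4, and nearest to KRT19 were MSI1 (0.379), ADGRB2 and L1CAM. VIM had no neighbour closer than PHC2 (0.460), followed by DACT3. NINL (0.114), NT5DC2 and RBFOX2 were nearest to NES. ARRB1 (0.181), ASXL1 and MAST4 were nearest to LMNA, GMPPB (0.120), NDST1 and ALB to LMNB1, and ATF3 (0.0666), PC and SKP2 to LMNB2. No member was among the 3 nearest genes of another.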

How the data were processed

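The authors deposited 1 table of gene-level FPKM values with 1 column for each of the 4 libraries, and all 4 columns were used. The submitters' processing notes name hg19, BWA, Bowtie and RSEM without roles or versions, but 55647 of the 58274 identifiers had the same version as in GENCODE release 29 for GRCh38, 55645 of them with the same start and end. Positions are therefore on GRCh38, counted from 1. The program that made the values and its use of strand are not given in the sources used here. Rows of 1 identifier were summed (90 identifiers, 58365 rows).

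Depth was read from the steps of low FPKM values of genes with a single transcript, where 92.7% to 94.9% of values fell within 0.1 of a whole fragment. Fragments per gene are approximate, taken from the median protein-coding transcript. Values of at most 3 fragments were treated as the floor. Intervals cover counting error only and not variation between cultures or sorts, and the interval code was tested on simulated data. Changes used a pseudocount of 1, a filter of 1 FPKM in at least 1 library and a threshold of 1. Since each population had 1 library, no test was run.

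The members and lists were chosen with earlier results of these data known. The text names the 10 members, up to 3 genes per list, step and direction that changed most and had 10 FPKM or more in the higher library, genes above 10 FPKM of lists with 5 or fewer of them, and the 3 nearest genes by pattern, of which 1 is not reported here. Sorting markers, defining markers named for their level (PTPRC, FOXA2, MYH11 and the genes listed at 0, for example), other cytoplasmic filament genes and overlapping genes are named outside this rule. Alternatives were pseudocounts of 0.1 and 0.5, a threshold of 2, filters of 0 and 5 FPKM, rescaled totals, duplicate rows not summed and pseudogene copies added. The last was also applied, as was counting KRT10, to a keratin ratio chosen after seeing the data. Python 3.11.15, numpy 2.4.6, pandas 2.3.3, scipy 1.17.1 and matplotlib 3.10.9 were used.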

Additional observations from a re-analysis of the deposited data

How the results depend on the processing

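No member's change past the threshold reversed its direction under any alternative run. Of 280 recomputed changes of single members 249 moved by no more than their counting error (0.5 on the log2 scale for KRT7, which has no interval) and 31 by more, and of 52 recomputed ratios 45 stayed within the counting interval. With a threshold of 2, 1 member rose into APLNR+, 1 fell into CD31+CD34+ and 2 fell into CD43+. With totals scaled to 1000000, or without mitochondrial and ribosomal RNA genes, 1 member (VIM) rose into CD31+CD34+. These scalings moved the median change of all genes from CD31+CD34+ to CD43+ from -0.08 to -0.19 and -0.14. In CD43+, adding pseudogene copies gave 0.839 for KRT8 to KRT18, 2.44 for VIM to the keratins and 0.770 for type II to type I keratins. Counting KRT10, chosen after seeing the data, gave 0.733 (BC1), 0.726 (APLNR+), 0.720 (CD31+CD34+) and 0.488 (CD43+) for the last ratio.

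Over the 5 lists, a threshold of 2 left 0, 1 and 0 genes rising and 2, 2 and 1 falling at the 3 steps, a filter of 5 FPKM left 3 rising into CD31+CD34+, and pseudocounts of 0.1 and 0.5 gave 4 and 2 rising into CD43+. Over all genes, a threshold of 2 gave 2.68%, 4.08% and 2.28% rising and 2.29%, 3.15% and 4.32% falling, and no filter gave 2.69%, 3.83% and 2.24% rising and 2.74%, 3.36% and 3.98% falling. A pseudocount of 0.1 gave 15.0% falling into APLNR+ and 20.4% into CD43+. The lower percentages without a filter come with more genes tested, most of them near 0. No paired analysis was possible because each population had 1 library and no test was run, and no library could be left out for the same reason. At these depths, differences of DES before CD43+ and of KRT7 after BC1 could not be measured.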
